A study of Mus musculus with 14 samples.

Results

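The genes described here are those whose response to TGF-β differed between EpH4 and EpRas cells. For each gene the response of a line was the mean log2(FPKM + 1) of its libraries with TGF-β minus the mean of its libraries without, where FPKM counts fragments relative to gene length and to the size of the library. The difference is the response of EpRas cells minus the response of EpH4 cells, so a value below 0 stands for a more positive response in EpH4 cells and a value above 0 for a more positive response in EpRas cells. It uses 8 of the 14 libraries of the series, those of untransfected cells, with 2 libraries in each of 4 groups. EpH4 cells are an epithelial line from the mouse mammary gland, grown in 10% fetal bovine serum. EpRas is a derivative of EpH4 transformed with H-Ras and was grown in 4% fetal bovine serum. Cells of both lines were exposed to TGF-β3 at 1 ng/ml for 48 h or left untreated. The transformation and the serum change together between the lines and cannot be told apart here, and each line is a single one, so a difference between the lines is a difference between these cell lines. The other 6 libraries come from EpRas cells that received siRNA, either a control called siNC or a pair that targets Etv4 and Etv5 (2 such pairs), each with and without TGF-β and with 1 library per condition, and their values are given only beside the results. The labels do not say whether the 2 libraries of a group came from separate cultures. The paper describes the RNA-seq of these untransfected cells as performed in biological replicates, and does not say how the replicates were grown. The p-values measure the spread between these libraries, and how much of it is technical was not tested.

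TGF-β binds a pair of receptor kinases that phosphorylate Smad2 and Smad3, which enter the nucleus with Smad4 and act on target genes together with other transcription factors. In epithelial cells it induces matrix and cytoskeletal genes, restrains growth and can drive the epithelial-mesenchymal transition, in which cells lose their junctions and acquire motility. Active Ras signals through the ERK kinases, which can modify the Smads and their partners, and the comparison of the 2 lines asks which parts of the response to TGF-β differ with it.

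The depth of the libraries relative to each other, read from the steps of the FPKM values, lay between 0.609 and 1.36, and a gene at 5 FPKM had 43.8 to 97.5 reads at the median. Libraries of the same group correlated across genes with r between 0.912, in EpRas cells with TGF-β, and 0.982, in EpH4 cells with TGF-β. Markers of luminal epithelium summed to between 1778 and 3711 FPKM in all libraries. Of 8 leukocyte markers, 2 reached 5 FPKM, and Ptprc, Emr1 and Tyrobp were listed at 0. Their sum went from between 1.81 and 2.09 to between 6.52 and 8.49 FPKM with TGF-β in EpH4 cells, and from between 4.496 and 5.21 to between 5.64 and 8.27 FPKM in EpRas cells. Of 8 fibroblast markers, Col1a1, Col1a2 and Pdgfrb reached 5 FPKM, and Lum and Thy1 were listed at 0. The fibroblast sum moved with TGF-β in EpH4 cells, from between 22.7 and 26.8 to between 222 and 247 FPKM, and lay between 8.42 and 13.6 FPKM in EpRas cells. The part of these marker changes in the results was not tested. The summed basal markers lay at 351 to 414 FPKM in untreated EpH4 cells and at 831 to 898 FPKM with TGF-β, against 104.5 to 117 and 64.8 to 67.4 FPKM in EpRas cells. In bulk RNA, a change in the number of cells of a kind and a change in RNA per cell cannot be told apart.

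Most of the called differences were below 0, and most of these belonged to genes that rose in EpH4 cells. Of 9100 genes tested, TGF-β raised 590 (6.48%) and lowered 265 (2.91%) in EpH4 cells, and raised 173 (1.9%) and lowered 175 (1.92%) in EpRas cells at a Benjamini-Hochberg adjusted p under 0.05 in limma. The response itself differed between the lines for 73 genes (0.802%), with 57 below 0 (0.626%) and 16 above 0 (0.176%), and 990 genes had an unadjusted p under 0.05 for the difference. The 73 genes include 8 genes of microRNAs and small nucleolar RNAs, which libraries from poly(A) RNA do not measure well, and the descriptions that follow leave them aside. This left 65 genes, 53 with a difference below 0 and 12 above 0. By direction, 43 of the 65 were called in EpH4 cells only (39 up, 4 down), 10 in EpRas cells only (4 up, 6 down), 9 in both lines in the same direction but to a different extent, and 3 in opposite directions. A response that was not called in 1 line may still be present there. A gene was tested if any 1 library reached 5 FPKM, and 24 of the 65 did so only in treated EpH4 cells, 3 only in untreated EpH4 cells, 3 only in treated EpRas cells and 2 only in untreated EpRas cells, so these 32 were admitted through the group where they are high. Not overlapping is a weak criterion with 2 libraries a group, since treated and untreated libraries did not overlap for 30.2% (higher) and 30.4% (lower) of the genes tested in EpH4 cells and for 18.5% and 20.9% in EpRas cells. A further 224 genes (2.46%) were called in both lines in the same direction without a called difference. Another 573 genes were called in EpH4 cells and 97 in EpRas cells alone without a called difference, and these cannot be read as particular to a line.

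**Figure D1:**
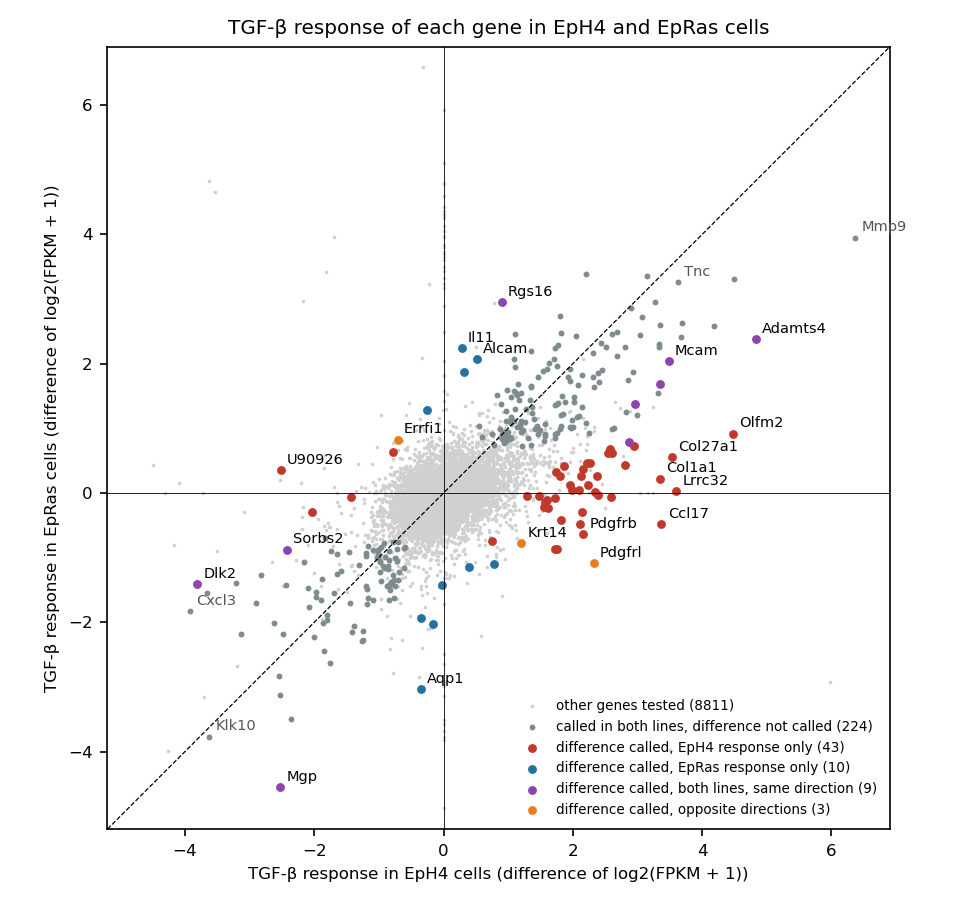
Response to TGF-β in EpH4 cells (x axis) and in EpRas cells (y axis) for the 9100 genes tested, each as a difference of log2(FPKM + 1), with the dashed line marking equal responses. The genes called only in EpH4 cells (red) spread along the x axis near 0 on the y axis, and most of the coloured points lie below the dashed line, and 53 of the 65 genes have a difference below 0.

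The shared class held 136 genes that rose and 88 that fell, and 220 of these 224 genes had the same sign in the siNC libraries of EpRas cells. Among those that rose, the estimate was larger in EpH4 cells for 93 of 136, and among those that fell it was more negative in EpH4 cells for 36 of 88. Over all genes the size of the estimate was larger in EpH4 cells for 5304 of 9100. Tnc, which encodes the matrix glycoprotein tenascin-C, lay at 49.4 and 54.6 FPKM in untreated EpH4 cells and at 672 and 629 FPKM with TGF-β. EpRas libraries went from 45.9 and 45.1 to 505 and 390.4 FPKM. Treated and untreated libraries were far apart in either line, and the responses of 3.62 and 3.26 differed by -0.36 (95% interval -0.93 to 0.20). Vegfa, the angiogenic growth factor, responded by 2.68 in EpH4 and 2.50 in EpRas cells, with a difference of -0.18 (interval -0.74 to 0.38). Has2, the hyaluronan synthase, had a difference of -0.04 (interval -0.88 to 0.80), and the integrin chain Itga2, part of a collagen receptor, one of -0.14 (interval -0.77 to 0.48). Among the genes that fell in both lines, the kallikrein gene Klk10 went from 10.8 and 11.9 FPKM to listed values of 0 in EpH4 cells, and from 46.1 and 45.5 to 2.93 and 1.99 FPKM in EpRas cells. The difference of Klk10 depended on the FPKM added before the logarithm: it was -0.15 and not called with 1 FPKM (adjusted p = 0.863), 2.65 and called with 0.1 FPKM (adjusted p = 0.0173) and -1.06 and called with 5 FPKM (adjusted p = 0.0372). Bmp4, a ligand of the BMP branch, fell in both lines as well, with responses of -3.14 and -2.18.

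Of the shared genes, some known TGF-β targets came close to a called difference. Mmp9, the gelatinase, went from 40.6 and 43.3 to 3933 and 3205 FPKM in EpH4 cells and from 32.2 and 24.2 to 335 and 596 FPKM in EpRas cells. Treated libraries of EpH4 cells were above all others. Its difference was -2.42 ± 0.40 (SE), with an adjusted p of 0.0537. Ctgf, a matricellular growth factor, had responses of 4.18 and 2.58 and a difference of -1.60 ± 0.28 (adjusted p = 0.0635). The neutrophil-attracting chemokine Cxcl3 fell by 3.92 in EpH4 and by 1.82 in EpRas cells (difference 2.10, adjusted p = 0.0541). In the siNC libraries, the difference with TGF-β was 4.77 for Mmp9. Nearest to the threshold of 0.05 among the genes called were Mgp (adjusted p = 0.0496), Krt7 and Ankrd1 (both 0.0491), and among those not called Vps53 (0.0505), Rhoj and Zbp1 (both 0.0510).

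Smad targets and feedback genes of the TGF-β pathway had called increases in either line and no called decrease. Of 20 genes on this list, 16 reached the 5 FPKM needed for a test, and 8 of them rose in EpH4 cells and 5 in EpRas cells (6.48% and 1.9% over all genes), with none lower. The median response was 0.64 in EpH4 and 0.44 in EpRas cells, against -0.02 in both lines over all genes tested. The median of the difference was -0.41, against -0.03 over all genes. None of the 16 differences was called, which is near the share of 0.802% over all genes and is not a result about this list. Skil, a corepressor of the Smads, responded by 1.03 and 0.84, and Pmepa1, which retains the Smads away from the receptor, by 2.06 and 1.17. Smad7, the inhibitory Smad, rose in EpH4 cells by 1.39, while its EpRas value of 0.60 had an adjusted p of 0.190, and the difference of -0.79 was not called (adjusted p = 0.361). Of the ligands, receptors and latency proteins of the pathway, 18 of 23 were tested, and 1 of them had a called difference.

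That gene was Lrrc32, also called Garp, which holds latent TGF-β on the cell surface (chromosome 7, 98489305 to 98501831 in GRCm38). It lay at 1.79 and 1.53 FPKM in untreated EpH4 cells and at 34.1 and 28.5 FPKM with TGF-β. EpRas libraries held 0.0773 and 0 FPKM without and 0.0549 and 0.0706 FPKM with TGF-β. The treated EpH4 libraries stood above all other libraries, and in EpRas cells the groups overlapped. The recovered reads were 38 and 44, then 523 and 649, in EpH4 cells, and at most 1 in each library of EpRas cells. The difference was -3.56 ± 0.22 (adjusted p = 0.00123) and was called in each of the 17 alternative fits in which the gene was tested. Lrrc32 is among the genes that reached 5 FPKM only in treated EpH4 cells. No response of EpRas cells was detectable at this depth.

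Of 28 collagen chains 14 were tested, and 4 of these had a called difference, each below 0. In EpH4 cells 8 rose and 1 fell, and in EpRas cells 4 rose and 1 fell. Over all genes 6.48% rose and 2.91% fell in EpH4 cells, 1.9% rose and 1.92% fell in EpRas cells, and 0.802% had a called difference. Col1a2, Col4a3, Col4a4 and Col27a1 reached 5 FPKM only in treated EpH4 cells, as did 156 of the 9100 genes, so 3 of the 4 called differences are of genes that the filter admitted through the group where they are high. Over the other 10 chains the median responses were 0.57 and -0.05 and the median difference was -0.67, against -0.02 for each over the other 8944 genes. Col1a1, a chain of type I collagen, went from 18.7 and 21.2 to 224 and 200.0 FPKM in EpH4 cells. The 4 EpRas libraries stayed between 1.57 and 2.78 FPKM, with treated and untreated libraries overlapping. The difference was -3.12 ± 0.29 (adjusted p = 0.00729). In the 3 siRNA conditions of EpRas cells, the differences of Col1a1 with TGF-β were 1.08, 0.90 and 1.06. The partner chain Col1a2 responded by 1.81 in EpH4 cells, with EpRas libraries between 0.120 and 0.735 FPKM (difference -2.23, adjusted p = 0.0177). Col4a4, a chain of basement membrane collagen, went from 1.68 and 1.78 to 16.8 and 13.9 FPKM in EpH4 cells and from 2.35 and 2.43 to 3.99 and 4.97 FPKM in EpRas cells. Its treated libraries were above the untreated ones in both lines, the EpRas response of 0.69 was not called (adjusted p = 0.0775), and the difference was -1.89 ± 0.23 (adjusted p = 0.0172). Col1a1 made up most of the fibroblast marker sum in EpH4 cells, and Pdgfrb exceeded it in EpRas cells. Col1a1, Col1a2 and Pdgfrb are themselves among the 65 genes.

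Col27a1, a fibrillar collagen of cartilage, was the other gene called in each of its 17 alternative fits. It lay at 0.183 and 0.203 FPKM in untreated EpH4 cells and at 12.5 and 13.2 FPKM with TGF-β, with 8 and 12 against 395 and 617 recovered reads. The EpRas libraries lay at 0.150 and 0.0202 FPKM without and at 0.481 and 0.721 FPKM with TGF-β. The groups did not overlap in either line, but the EpRas response of 0.56 was not called (adjusted p = 0.116). The difference was -2.98 ± 0.22 (adjusted p = 0.00257). In the siNC libraries and those of the 2 siRNA pairs, Col27a1 differed with TGF-β by 0.97, 1.41 and 1.15. Its promoter is printed because no other matrix gene had a difference called so regularly. The sequence is that of RefSeq for GRCm38.p6 (mm10), chr4:63215162-63215461 on the plus strand, 250 bases before to 50 after a start of transcription, where capitals mark the letters of the Smad box, GTCTG on either strand. The start used by the table is not the outermost start of Col27a1 in RefSeq.
Col27a1: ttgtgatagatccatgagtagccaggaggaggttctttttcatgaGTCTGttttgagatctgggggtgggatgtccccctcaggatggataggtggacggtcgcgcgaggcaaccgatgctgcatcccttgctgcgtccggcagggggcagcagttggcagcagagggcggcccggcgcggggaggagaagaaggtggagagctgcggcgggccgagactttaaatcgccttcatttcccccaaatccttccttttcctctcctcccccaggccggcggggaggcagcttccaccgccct

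Of the matrix glycoproteins, 13 of 33 were tested, 9 rose in EpH4 and 6 in EpRas cells, and no difference was called, against 6.48%, 1.9% and 0.802% over all genes. Fn1, which encodes fibronectin, responded by 1.09 in EpH4 and 1.58 in EpRas cells, with a difference of 0.49 (interval -0.01 to 1.00). Of integrins and laminins, 17 of 25 were tested, 11 rose and 1 fell in EpH4 cells, 5 rose and 1 fell in EpRas cells, and 1 difference was called. Itga7 and Itgb6 of this list reached 5 FPKM only in treated EpH4 cells. The integrin chain Itgb5 went from 109 and 90.4 to 316 and 294 FPKM in EpH4 cells and lay between 73.8 and 92.4 FPKM in all EpRas libraries. EpRas libraries overlapped between treatments, and the difference was -1.71 ± 0.24 (adjusted p = 0.0287). Among matrix proteases and inhibitors, 20 of 33 were tested, 10 rose in EpH4 cells, 6 rose and 3 fell in EpRas cells, and the difference was called for Adamts4, an aggrecan-cleaving protease. Of all genes 2.91% fell in EpH4 and 1.92% in EpRas cells. Mmp3 of the protease list reached 5 FPKM only in treated EpH4 cells. Adamts4 went from 1.42 and 2.10 to 78.1 and 75.6 FPKM in EpH4 cells and from 0.322 and 0.779 to 5.89 and 8.31 FPKM in EpRas cells. It thus rose in both lines without overlap, and by 2.44 ± 0.32 less in EpRas cells (adjusted p = 0.0221). Mcam, a surface adhesion molecule, rose in both lines as well, with responses of 3.49 and 2.04 and a difference of -1.44 ± 0.20 (adjusted p = 0.0274).

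**Figure D2:**
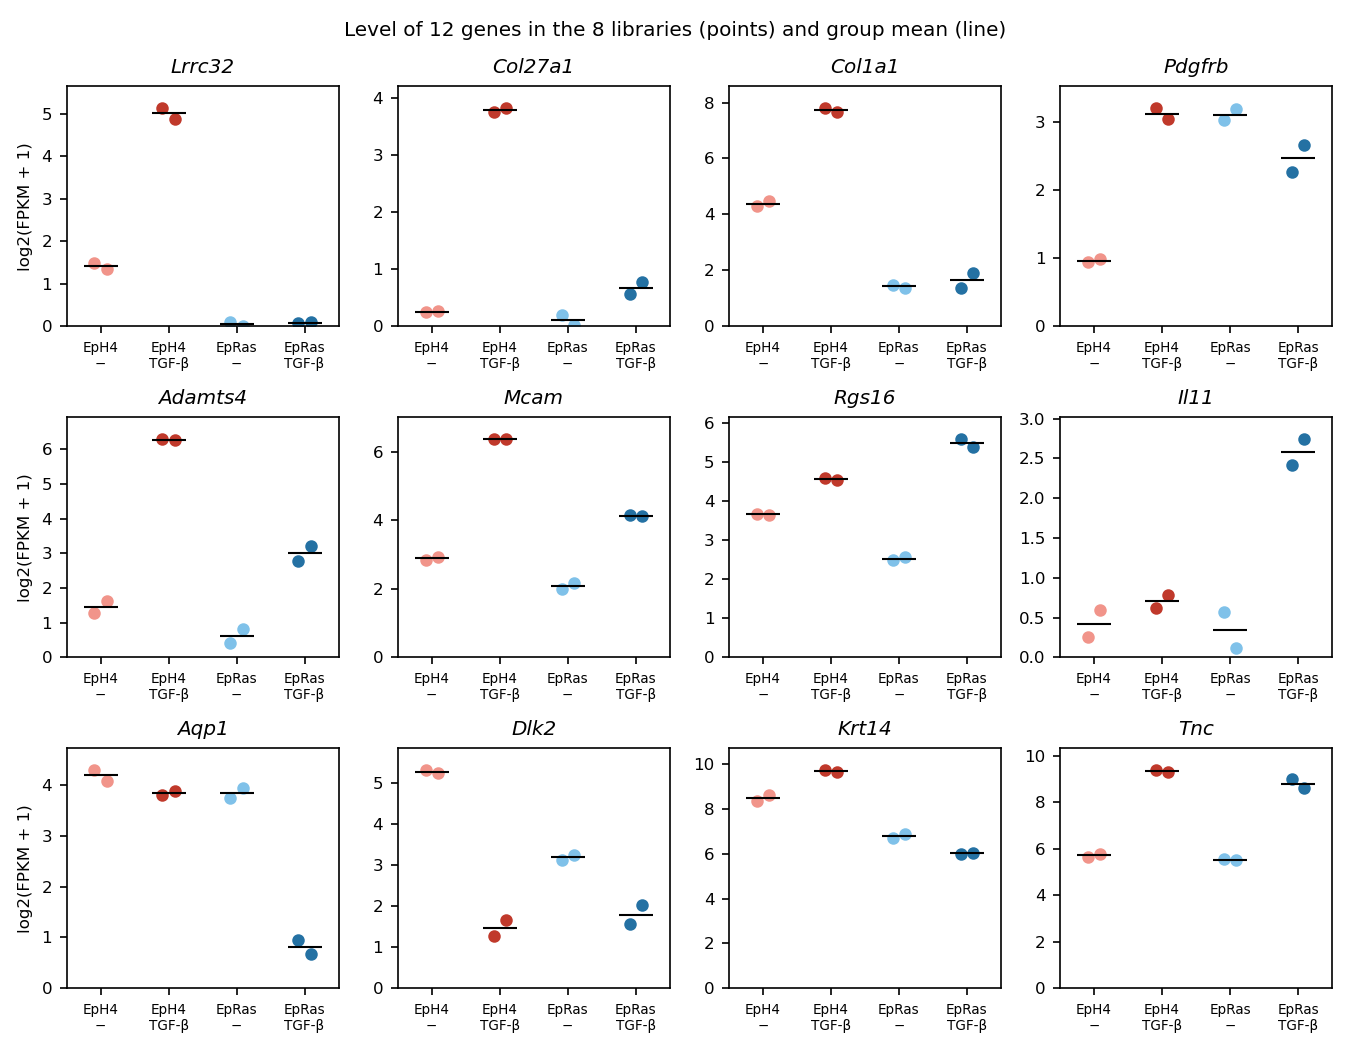
Level of 12 genes as log2(FPKM + 1) (y axis) in the 4 groups (x axis), with 1 point per library and a line at the group mean. Lrrc32, Col27a1 and Col1a1 stand highest in treated EpH4 cells and Il11 in treated EpRas cells, Aqp1 is lowest in treated EpRas cells, Krt14 moves in opposite directions, and Tnc rises in both lines.

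Of the FGF, PDGF and VEGF ligands and receptors, 13 of 22 were tested, 7 rose and 1 fell in EpH4 cells, and 4 rose and 1 fell in EpRas cells. Over all genes these shares were 6.48%, 2.91%, 1.9% and 1.92%, and 0.802% for the difference. Fgf21 of this list reached 5 FPKM only in treated EpH4 cells. The 1 called difference was that of Pdgfrb, the receptor for PDGF-BB. It went from 0.915 and 0.988 to 8.24 and 7.21 FPKM in EpH4 cells. In EpRas cells it was at 7.14 and 8.11 FPKM without TGF-β, about the level of treated EpH4 cells, and at 3.81 and 5.34 FPKM with it. The groups did not overlap in either line and moved in opposite directions in these libraries. The EpRas value of -0.64 was not called (adjusted p = 0.124), and the difference was -2.80 ± 0.26 (adjusted p = 0.00636). In the siRNA libraries of EpRas cells Pdgfrb rose with TGF-β, by 0.57 with siNC and by 0.83 and 0.33 with the pairs against Etv4 and Etv5. Csf1r, the receptor for colony-stimulating factor 1 and one of the leukocyte markers, went from 0.185 and 0.103 to 6.23 and 5.74 FPKM in EpH4 cells and from 0.685 and 0.368 to 1.13 and 1.53 FPKM in EpRas cells (difference -2.00, adjusted p = 0.0172). Csf1r thus makes up most of the rise of the leukocyte marker sum in EpH4 cells, from between 1.81 and 2.09 to between 6.52 and 8.49 FPKM. Of the contractile and actin cytoskeleton genes, 18 of 28 were tested, 8 rose in EpH4 and 2 in EpRas cells (6.48% and 1.9% over all genes), and 1 difference was called (0.802%). Acta2, smooth muscle actin and a marker of myofibroblasts, was at 0.108 and 0.636 FPKM without and at 8.22 and 8.64 FPKM with TGF-β in EpH4 cells. In EpRas cells it lay at 1.24 and 1.33 FPKM without and at 1.89 and 2.26 FPKM with TGF-β, which do not overlap but gave a response of 0.43 that was not called (adjusted p = 0.380). The difference was -2.38 ± 0.29 (adjusted p = 0.0172), and Acta2 is the 1 gene of its list that reached 5 FPKM only in treated EpH4 cells. In the siRNA libraries, the response of Acta2 was -0.02 with siNC and 3.05 and 3.56 with the pairs against Etv4 and Etv5.

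Wnt9a, a Wnt ligand and the 1 called difference among 14 Wnt pathway genes tested of 37, lay at 8.63 and 8.70 FPKM in untreated EpH4 cells and at 47.5 and 49.1 FPKM with TGF-β. In EpRas cells all 4 libraries lay between 8.88 and 9.09 FPKM. The lines thus started from nearly the same level, and the difference was -2.34 ± 0.19 (adjusted p = 0.00386). In siNC libraries it went from 8.34 to 20.9 FPKM. Wnt11 rose in both lines, with responses of 3.35 and 2.59, and its difference of -0.76 was not called (adjusted p = 0.399), though it was called with 5 FPKM added (-1.31, adjusted p = 0.0357) and was 0.42 with 0.1 FPKM added (adjusted p = 0.766). Of the chemokines and cytokines, 18 of 35 were tested, 3 rose and 3 fell in EpH4 cells, 2 rose and 3 fell in EpRas cells, and 3 differences were called. The shares over all genes were 6.48% and 2.91% in EpH4 cells, 1.9% and 1.92% in EpRas cells and 0.802% for the difference. Ccl17, which attracts T cells, went from 0 and 0.402 to 11.3 and 11.2 FPKM in EpH4 cells, with 30 and 44 reads in the treated libraries. In EpRas cells it lay between 1.63 and 4.33 FPKM with overlapping groups, and the difference of -3.85 ± 0.44 (adjusted p = 0.0130) was the most negative of the 65 with 1 FPKM added. Ccl17 reached 5 FPKM only in treated EpH4 cells, and its difference lay between -6.30 and -1.88 over 17 alternative fits, 12 of which called it, and was not called with 0.1 FPKM added (-6.30, adjusted p = 0.0702). Cx3cl1, a membrane-bound chemokine, went from 12.8 and 9.18 to 50.3 and 49.9 FPKM in EpH4 cells and from 33.1 and 28.6 to 20.4 and 23.1 FPKM in EpRas cells (difference -2.59, adjusted p = 0.00854). The third, Il11, had the opposite sign and is described with the EpRas genes.

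Of 34 interferon-stimulated genes 18 were tested, 9 rose in EpH4 cells and 0 in EpRas cells, against 6.48% and 1.9% over all genes. Of these 18 genes, 8 reached 5 FPKM only in treated EpH4 cells, and over the other 10 the median responses were 0.50 and -0.07. The difference itself was called for 2 of the 18, both among those 8, so most of the list cannot be called particular to EpH4 cells. Usp18, which removes ISG15 from proteins, went from 2.06 and 1.36 to 6.61 and 7.38 FPKM in EpH4 cells and stayed between 0.253 and 0.479 FPKM in EpRas cells (difference -1.71, adjusted p = 0.0293). Oasl2, an oligoadenylate synthetase-like protein, had a response of 1.86 in EpH4 and 0.42 in EpRas cells (difference -1.44, adjusted p = 0.0358). The calls of Usp18 and Oasl2 each held in 5 of 17 alternative fits and were lost with limma-trend. Irf7 and Isg15 rose by 1.78 and 1.58 in EpH4 cells and had differences of -1.74 and -1.41 that were not called (adjusted p of 0.139 and 0.302). Cd74, the invariant chain of MHC class II, went from 5.18 and 5.41 to 35.1 and 38.9 FPKM in EpH4 cells and stayed under 1 FPKM in EpRas cells (difference -2.65, adjusted p = 0.00608). Genes of MHC class I presentation had 3 called increases in EpH4 cells, none in EpRas cells and no called difference among 17 tested of 20, near the 0.802% over all genes.

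The 39 genes called higher in EpH4 cells only fall into different kinds by their level in EpRas cells. For 11 of them (Cd74, Col1a2, Col27a1, Gm12824, Lrp4, Lrrc32, Pard6g, Ptpru, Scube3, Tmem119 and Usp18), every EpRas library lay under 1 FPKM. For 17 of them, both untreated EpRas libraries lay above both untreated EpH4 libraries, as for Pdgfrb, Acta2, Cx3cl1 and Wnt9a. The shares over all genes were not computed for these counts, so the counts are descriptions. Both treated EpH4 libraries were above all 4 EpRas libraries in 37 of the 39. The 39 were chosen for a called rise in EpH4 cells only, so this count follows largely from the choice. The exceptions were Pdgfrb and Cox7a1. Cox7a1, a subunit of respiratory complex IV, was listed at 0 in untreated EpH4 cells, lay at 2.86 and 1.92 FPKM with TGF-β, and lay at 5.08 and 5.46 FPKM without and 3.61 and 1.55 FPKM with TGF-β in EpRas cells on 2 to 12 reads a library. In the siNC libraries Cox7a1 went from 8.97 to 23.4 FPKM, and its differences with TGF-β in the 3 siRNA conditions were 1.29, 0.50 and -0.78. The EpRas estimate was below 0 for 17 of the 39, and the treated EpRas libraries lay without overlap above the untreated ones for 15 and below them for 9, against 18.5% and 20.9% of all genes. Pard6g, a polarity protein, shows the first kind of gene, with 84 and 96 reads in untreated and 256 and 370 reads in treated EpH4 cells and no more than 3 reads in any EpRas library. Nedd9, a scaffold of integrin signalling, shows similar starting levels, with 15.2 and 15.5 FPKM in untreated EpH4 cells, 42.4 and 46.9 FPKM with TGF-β, and 15.4 to 16.8 FPKM in EpRas cells.

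Other genes called higher in EpH4 cells only belong to no single function. Olfm2, a secreted olfactomedin, went from 0.386 and 0.949 to 35.8 and 35.7 FPKM in EpH4 cells, with 3 and 10 against 201 and 298 reads, and from 0 and 0.341 to 0.750 and 1.74 FPKM in EpRas cells. Its difference was -3.57 ± 0.39 (adjusted p = 0.0115). Of transcriptional regulators, Nfatc2, the calcium-regulated factor, went from 1.42 and 2.06 to 13.4 and 10.4 FPKM in EpH4 cells and lay between 1.20 and 1.78 FPKM in EpRas cells. Its differences with TGF-β in the 3 siRNA conditions were 1.06, 0.95 and 0.90. Hr, a corepressor of nuclear receptors, responded by 2.54 in EpH4 and 0.62 in EpRas cells, and Sertad4 by 1.74 and 0.33. Of surface proteins, Il18r1, the receptor for interleukin-18, responded by 2.27 in EpH4 and 0.46 in EpRas cells, at 127 and 135 FPKM with TGF-β in the former and 21.9 and 20.8 FPKM in the latter. The Wnt and agrin coreceptor Lrp4 responded by 2.37 and 0.27, the receptor phosphatase Ptpru by 2.09 and 0.05, the taurine transporter Slc6a6 by 1.81 and 0.26, and the tweety family member Ttyh2 by 2.14 and -0.30. Tmem119, a membrane protein known from bone and microglia, lay at 0.272 and 0.134 FPKM without and 8.68 and 7.94 FPKM with TGF-β in EpH4 cells. In EpRas cells Tmem119 went from 0 and 0.0801 to 0.529 and 0.952 FPKM without overlap, a response of 0.73 that was not called (adjusted p = 0.0745), and its differences in the 3 siRNA conditions were 0.95, 0.72 and 0.61. Celsr1, a planar polarity cadherin, went from 12.3 and 14.4 to 24.8 and 21.4 FPKM in EpH4 cells and from 5.87 and 5.76 to 2.80 and 3.36 FPKM in EpRas cells, with responses of 0.75 (adjusted p = 0.0309) and -0.74 (adjusted p = 0.0566).

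Of the other genes in this class, the serine protease Prss23 went from 23.4 and 22.8 to 71.8 and 74.1 FPKM in EpH4 cells and from 35.3 and 32.5 to 30.3 and 27.0 FPKM in EpRas cells. The annexin Anxa8 went from 19.0 and 22.9 to 61.9 and 63.9 FPKM in EpH4 cells and from 39.6 and 43.5 to 35.8 and 35.2 FPKM in EpRas cells. In both genes EpRas cells began above EpH4 cells and ended below them. The secreted proteins Scube3, Enho and Fam20a responded by 1.72, 2.22 and 2.15 in EpH4 cells and by -0.07, 0.46 and 0.38 in EpRas cells. The carboxylesterase Ces1g, the transcribed pseudogene Zfp862 and the genes AI646023 and Gm12824, whose functions are not described here, responded by 2.13, 1.29, 2.39 and 1.98 in EpH4 cells and by 0.26, -0.05, -0.03 and 0.04 in EpRas cells. Genes that rose in both lines and less in EpRas cells were, besides Adamts4 and Mcam, the adhesion receptor Gpr123, the serine protease Prss46 and the nectin gene Pvrl4. Pvrl4 went from 9.67 and 8.95 to 79.7 and 69.2 FPKM in EpH4 cells and from 0.260 and 0.279 to 1.11 and 1.27 FPKM in EpRas cells (difference -2.09, adjusted p = 0.00798). Its untreated EpRas values lay under the 1 FPKM added before the logarithm. With 0.1 FPKM added, the differences of Pvrl4, Prss46, Adamts4 and Mcam were not called. Gpr123 responded by 3.35 and 1.68 and Prss46, which was listed at 0 in both untreated EpH4 libraries, by 2.97 and 1.38.

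Dlk2, a membrane protein related to Notch ligands, went from 39.0 and 36.7 to 1.42 and 2.15 FPKM in EpH4 cells and from 7.77 and 8.58 to 1.94 and 3.07 FPKM in EpRas cells. It fell in both lines to a similar level, from a higher one in EpH4 cells, and its difference was 2.41 ± 0.30 (adjusted p = 0.0172). It was the 1 called difference among 11 Notch pathway genes tested of 19, against 0.802% over all genes. Sorbs2, an adaptor of the actin cytoskeleton, fell by 2.43 in EpH4 and by 0.88 in EpRas cells (difference 1.55, adjusted p = 0.0238). The genes called lower in EpH4 cells only were U90926, Scara5, Sgpp2 and Znhit6. U90926, a noncoding transcript, went from 176 and 251 to 35.3 and 36.6 FPKM in EpH4 cells and lay at 109.8 and 93.7 FPKM without and 138 and 122 FPKM with TGF-β in EpRas cells. Its EpRas groups did not overlap, its response of 0.35 was not called (adjusted p = 0.468), and its difference of 2.87 ± 0.29 (adjusted p = 0.00798) was the most positive of the 65. In siNC libraries it went the other way, from 35.7 to 12.5 FPKM, a difference of -1.44, while those of the siRNA pairs against Etv4 and Etv5 were 0.60 and 0.91. Scara5, a ferritin receptor, went from 9.57 and 11.1 to 1.64 and 1.90 FPKM in EpH4 cells and lay at or under 0.502 FPKM in EpRas cells, where 0 to 12 reads a library leave a fall undetectable. In the siNC libraries Scara5 went from 3.22 to 0.441 FPKM, and its differences with TGF-β in the 3 siRNA conditions were -1.55, -2.01 and -2.98, beside -2.03 in EpH4 cells. Sgpp2, a sphingosine phosphate phosphatase, went from 5.61 and 5.42 to 1.31 and 1.50 FPKM in EpH4 cells and was listed at 0 in 3 of the 4 EpRas libraries. Znhit6, a factor of ribonucleoprotein assembly, had responses of -0.78 in EpH4 and 0.63 in EpRas cells, and the second was not called (adjusted p = 0.0948).

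Besides Errfi1, which fell in EpH4 cells, 5 genes with a difference above 0 rose in EpRas cells, namely Rgs16, Il11, Alcam, Abcb1a and Ankrd1. Rgs16, which shortens signalling by G proteins, lay at 11.7 and 11.4 FPKM in untreated and 22.9 and 22.1 FPKM in treated EpH4 cells. In EpRas cells it went from 4.58 and 4.93 to 47.0 and 40.7 FPKM, with 35 and 70 against 505 and 340 reads. It rose in both lines without overlap, and EpRas cells were below EpH4 cells without TGF-β and above them with it. The difference was 2.06 ± 0.21 (adjusted p = 0.00798). In the siNC libraries Rgs16 rose by 0.61, less than the 0.90 of EpH4 cells. With the pairs against Etv4 and Etv5 it rose by 1.24 and 1.06, against 2.96 in untransfected EpRas cells. The cytokine Il11, a member of the interleukin-6 family, lay between 0.0862 and 0.728 FPKM in the 6 libraries other than treated EpRas cells, where it reached 4.33 and 5.71 FPKM with 38 and 39 reads. Its difference was 1.95 ± 0.31 (adjusted p = 0.0462). That call held in 4 of 17 alternative fits and in 0 of those with 1 library left out, with values from 0.85 to 3.16. Its differences with TGF-β in the 3 siRNA conditions were 3.24, 2.29 and 2.30. Alcam, an adhesion molecule of the immunoglobulin family, went from 2.64 and 2.34 to 14.6 and 12.8 FPKM in EpRas cells and from 1.54 and 1.90 to 2.98 and 2.80 FPKM in EpH4 cells (difference 1.56, adjusted p = 0.0274). The drug efflux pump Abcb1a responded by 1.86 in EpRas and 0.31 in EpH4 cells (difference 1.55, adjusted p = 0.0462). Ankrd1, a target of YAP and a muscle protein, went from 81.1 and 89.7 to 236 and 185 FPKM in EpRas cells and from 64.1 and 63.3 to 57.8 and 49.1 FPKM in EpH4 cells (difference 1.54, adjusted p = 0.0491). Over the alternative fits, the call held in 3 of 18 for Ankrd1, in 5 of 17 for Abcb1a, in 8 of 17 for Alcam and in 14 of 18 for Rgs16, and with 1 library left out it held in 1 fit for Ankrd1 and in 0 for Abcb1a. Il11, Alcam and Abcb1a reached 5 FPKM only in treated EpRas cells.

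The promoters of Rgs16 and Il11 are printed for comparison with that of Col27a1, since these genes differ in the opposite direction. They are RefSeq sequences of GRCm38.p6, chr1:153740103-153740402 on the plus strand and chr7:4782808-4783107 on the minus strand, each written 5′ to 3′ with the same letters in capitals. The start used for Il11, as for Col27a1, is not its outermost one.
Rgs16: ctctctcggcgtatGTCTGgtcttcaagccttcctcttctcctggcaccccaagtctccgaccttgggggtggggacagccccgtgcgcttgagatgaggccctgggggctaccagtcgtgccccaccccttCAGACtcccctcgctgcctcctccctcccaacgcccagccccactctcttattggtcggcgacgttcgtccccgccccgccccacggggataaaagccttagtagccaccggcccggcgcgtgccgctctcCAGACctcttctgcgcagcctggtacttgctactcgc
Il11: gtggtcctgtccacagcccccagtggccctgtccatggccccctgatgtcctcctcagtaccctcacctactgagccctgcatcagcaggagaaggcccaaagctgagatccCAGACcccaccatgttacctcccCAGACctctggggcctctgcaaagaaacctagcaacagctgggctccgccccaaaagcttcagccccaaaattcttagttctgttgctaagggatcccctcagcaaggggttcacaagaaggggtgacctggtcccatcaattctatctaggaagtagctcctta
The Smad box occurred 3 times in the window of Rgs16, 2 times in that of Il11 and 1 time in that of Col27a1. Searched on both strands, GTCTG stood in 59.4% of the 32 promoters found for the 53 genes with a difference below 0 and in 45.5% of the 11 found for the 12 genes above 0, against 49.7% of all 27025 promoters and 46.7% of the 6526 found for genes tested. The AP-1 letters TGANTCA stood in 0 of these 32 and 0 of these 11 promoters, against 7.93% of all and 4.66% of the promoters of genes tested. The ETS letters CCGGAA stood in 3.12% and 9.09%, against 15.2% of all and 31.5% of the promoters of genes tested. The RUNX letters TGTGGT stood in 12.5% and 27.3%, against 16.9% and 11.6%. These matches of letters are descriptions of 300 bases and say nothing of binding.

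The 6 genes called lower in EpRas cells only were Aqp1, C3, Krt7, Nptx1, Slc24a3 and St3gal5. Aqp1, a water channel, lay at 18.6 and 15.9 FPKM in untreated and 12.9 and 13.7 FPKM in treated EpH4 cells. The EpRas libraries went from 12.5 and 14.4 to 0.931 and 0.599 FPKM. The EpRas groups were far apart and the EpH4 groups apart by little, and the difference was -2.68 ± 0.24 (adjusted p = 0.00621). C3, the central complement component, went from 13.3 and 12.2 to 4.99 and 5.49 FPKM in EpRas cells and from 47.0 and 50.7 to 66.4 and 63.1 FPKM in EpH4 cells (difference -1.54, adjusted p = 0.0221). It was the 1 called difference among 6 acute phase and innate defence genes tested of 23, of which 4 fell in EpRas and 1 in EpH4 cells. Over all genes the difference was called for 0.802%, and 1.92% fell in EpRas and 2.91% in EpH4 cells. St3gal5, the synthase of ganglioside GM3, fell by 2.02 in EpRas cells and changed by -0.16 in EpH4 cells (difference -1.86, adjusted p = 0.0371). The sodium-calcium exchanger Slc24a3 and the pentraxin Nptx1 had EpRas responses of -1.93 and -1.42 and differences of -1.58 and -1.40. Nptx1 was at or near 0 in all EpH4 libraries, so that a fall was not detectable there. Mgp, an inhibitor of calcification, fell in both lines, by 2.52 in EpH4 and by 4.56 in EpRas cells, with 16 and 35 reads in untreated EpH4 cells and 78 and 117 in untreated EpRas cells (difference -2.03, adjusted p = 0.0496). The treated libraries held 1 and 2 reads in EpH4 cells and 2 and 2 in EpRas cells. Its call held in 4 of 18 alternative fits. In the siNC libraries Mgp fell by 1.22, less than in EpH4 cells, and with the pairs against Etv4 and Etv5 by 3.88 and 2.56.

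Of the 19 keratins and vimentin, 10 were tested, 3 rose in EpH4 cells, 2 fell in EpRas cells and 2 differences were called, against 6.48%, 1.92% and 0.802% over all genes. Krt16 and Nes of this list reached 5 FPKM only in treated EpH4 cells. Krt14, a keratin of basal cells, went from 327 and 386 to 851 and 784 FPKM in EpH4 cells and from 103 and 115 to 62.2 and 64.6 FPKM in EpRas cells. The groups did not overlap in either line, and the basal marker sum, to which Krt14 contributes most, moved with it. Its responses of 1.20 (adjusted p = 0.00409) and -0.78 (adjusted p = 0.0420) were opposite in sign, and the difference was -1.98 ± 0.22 (adjusted p = 0.0127). Krt7, a keratin of simple epithelia, lay at 2549.8 and 3425 FPKM in untreated and 5185 and 4941 FPKM in treated EpH4 cells, and went from 2275 and 1908 to 845 and 1120.0 FPKM in EpRas cells (difference -1.87, adjusted p = 0.0491). Pdgfrl, a protein related to PDGF receptors, went from 12.3 and 7.17 to 50.9 and 51.4 FPKM in EpH4 cells and from 5.67 and 5.19 to 1.94 and 2.11 FPKM in EpRas cells (difference -3.41, adjusted p = 0.00729). Errfi1, an inhibitor of the EGF receptor, was the reverse case, going from 27.3 and 23.2 to 14.3 and 15.7 FPKM in EpH4 cells and from 25.8 and 27.5 to 42.6 and 53.9 FPKM in EpRas cells (difference 1.54, adjusted p = 0.0472). These were the 3 genes called in opposite directions among the 236 called in both lines. All 3 EpRas responses lay near the threshold, with adjusted p between 0.0420 and 0.0490. In the siNC libraries they had the sign seen in EpH4 cells, with 0.36 for Krt14, 0.39 for Pdgfrl and -0.05 for Errfi1, each from 1 library against 1. With the pairs against Etv4 and Etv5 they had the sign of the untransfected EpRas cells. These values were -0.14 and -0.58 for Krt14, -0.02 and -1.38 for Pdgfrl, and 0.66 and 0.51 for Errfi1.

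No difference was called among 24 of 31 genes of adherens and tight junctions, 10 of 13 desmosome genes, 16 of 21 epithelial identity regulators and 10 of 17 transcription factors of the epithelial-mesenchymal transition that were tested. The nectin gene Pvrl4, with a called difference of -2.09, is not on the list of junction genes. With 0.802% called over all genes, a count of 0 in lists of this size is near the background and is not a result about these functions. Cdh1, which encodes E-cadherin, lay at 49.1 and 53.2 FPKM without and 93.7 and 85.0 FPKM with TGF-β in EpH4 cells, and at 24.4 and 27.4 FPKM without and 20.6 and 18.2 FPKM with it in EpRas cells. The EpH4 response of 0.79 was called (adjusted p = 0.0210), the EpRas value of -0.40 was not (adjusted p = 0.269), and the difference of -1.19 ± 0.22 had an adjusted p of 0.0705. Jup, plakoglobin of the desmosome, responded by 1.38 in EpH4 cells with 0.08 in EpRas cells (difference -1.31, adjusted p = 0.0783). Desmosome genes had 4 increases and 1 decrease in EpH4 cells and 1 decrease in EpRas cells. Of the desmosome genes, Dsg2 reached 5 FPKM only in treated EpH4 cells. Among the epithelial identity regulators, 2 fell in EpH4 and 4 in EpRas cells, with median responses of -0.03 and -0.54, against -0.02 in both lines over all genes. Over all genes 6.48% rose and 2.91% fell in EpH4 cells, and 1.92% fell in EpRas cells.

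**Figure D3:**
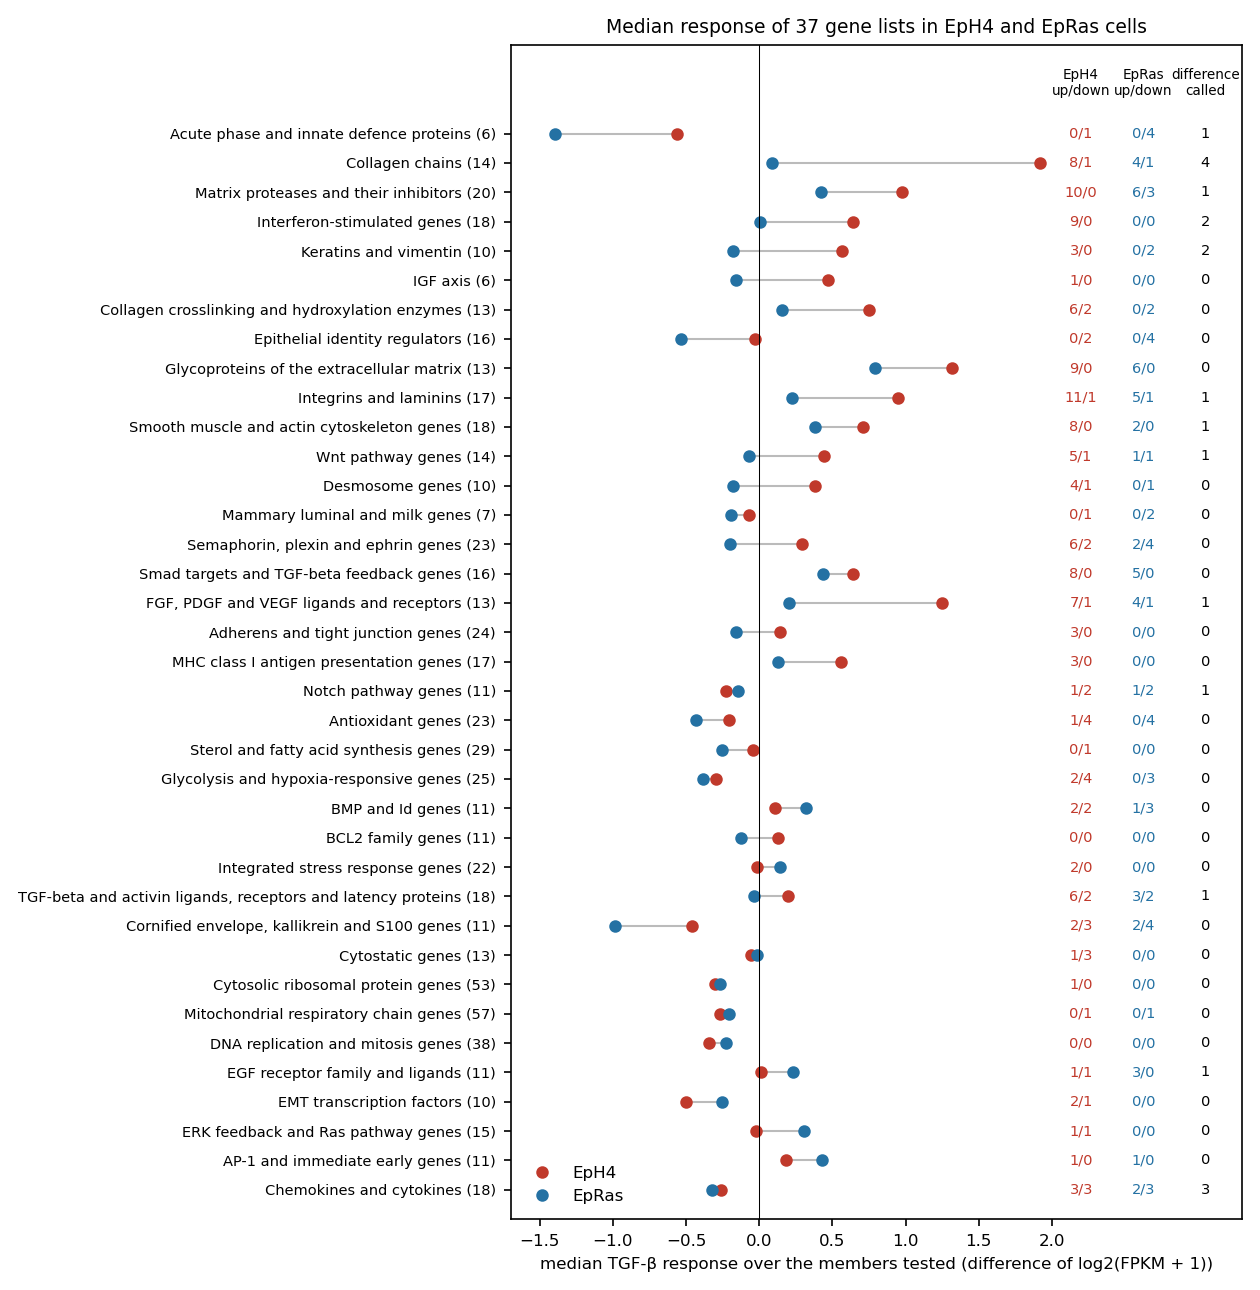
Median response to TGF-β (x axis, difference of log2(FPKM + 1)) of the members tested in 37 gene lists (y axis, number tested in brackets) in EpH4 cells (red) and EpRas cells (blue), with the numbers of members called up and down in each line and the number with a called difference at the right. The medians include members that reached 5 FPKM only in treated EpH4 cells, among them 4 of 14 collagen chains and 8 of 18 interferon-stimulated genes, and without these members the medians were 0.57 and -0.05 for collagen chains and 0.50 and -0.07 for interferon-stimulated genes.

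Genes of growth and metabolism had few or no called differences, as did all genes tested (0.802%), so these counts are not results about those functions. The 38 genes of DNA replication and mitosis tested of 39 had medians of -0.34 in EpH4 and -0.23 in EpRas cells, with no gene called in either line. The 53 cytosolic ribosomal protein genes had medians of -0.31 and -0.27, and the 57 respiratory chain genes medians of -0.27 and -0.21. Glycolysis and hypoxia genes, antioxidant genes, sterol synthesis genes and BCL2 family genes, like the lists before them, had 0 called differences. Cox7a1, a subunit of respiratory complex IV with a called difference of -2.62, is not on the respiratory chain list. ERK feedback genes, of which 15 of 21 were tested, had 1 increase and 1 decrease in EpH4 cells, none in EpRas cells and a median difference of 0.18. Among EGF receptors and ligands, 1 rose and 1 fell in EpH4 cells and 3 rose in EpRas cells of 11 tested, and the called difference was that of Errfi1. The shares of all genes were 6.48% up and 2.91% down in EpH4 cells and 1.9% up in EpRas cells. Lrig3 of the EGF list reached 5 FPKM only in treated EpH4 cells, and 1 other member only in treated EpRas cells. A p-value above the threshold does not show that members of these lists responded alike.

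**Figure D4:**
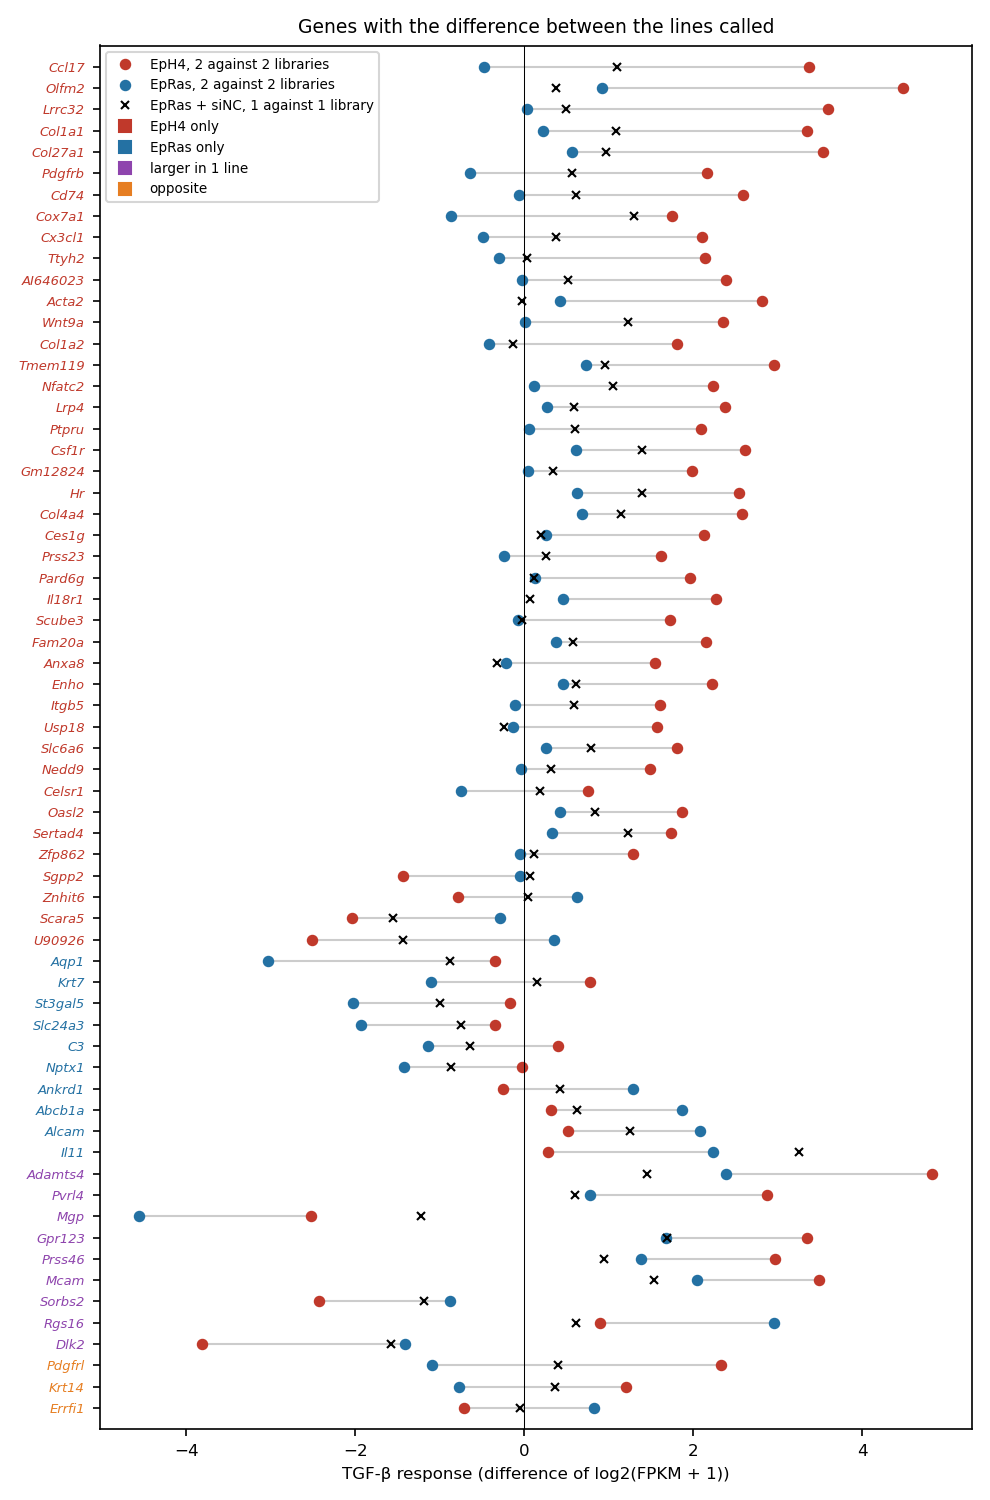
Response to TGF-β (x axis, difference of log2(FPKM + 1)) of 64 of the 65 genes with a called difference (y axis, coloured by class) in EpH4 cells (red points) and EpRas cells (blue points), with crosses for the siNC libraries of EpRas cells, of which there is 1 per condition. The red and blue points chose the genes and are a description. The crosses come from libraries not used for the choice, and Krt14, at 0.36, and Errfi1, at -0.05, are examples of a cross on the side opposite to the blue point. With the siRNA pairs against Etv4 and Etv5, both genes had the sign of the blue point (Krt14 -0.14 and -0.58, Errfi1 0.66 and 0.51).

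The siRNA libraries give the EpRas side of the difference in a separate set of libraries and a separate run of the quantification, with no test. Of the 22 genes with a called difference and a called EpRas response, 18 had the same sign in the siNC libraries, 20 in siRNA pair 1, 22 in siRNA pair 2 and 17 in all 3. The 4 that did not in siNC were Errfi1, Krt14, Krt7 and Pdgfrl. Of the 39 genes called higher in EpH4 cells only, 25 were higher with TGF-β in all 3 siRNA conditions and 1 was lower in all 3. The shares over all genes were not computed for these counts, nor for the 220 of 224 shared genes, so the counts are descriptions. The levels without TGF-β also differed between the tables for some genes with a called difference, as for Rgs16, at 4.58 and 4.93 FPKM in untransfected and 21.7 FPKM in siNC cells, and Pdgfrb, at 7.14 and 8.11 against 1.09 FPKM. The tables were quantified separately, so such levels are not strictly comparable.

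Counting limits the low end of these results. For 31 of the 65 genes at least 1 group had both libraries under 1 FPKM, and for those the difference depends on the 1 FPKM added before the logarithm. Whole reads could be recovered for 41 of the 65 genes. All 65 kept the sign of the difference in every alternative fit in which they were tested. The calls were less steady, since 35 of the 65 kept the call with limma-trend and 2 to 57 with 1 library left out, with 2 left (Lrrc32 and Col27a1) when either library of EpH4 cells with TGF-β was removed.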

How the data were processed

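The authors extracted total RNA, selected poly(A) RNA with magnetic beads and sequenced directional libraries on an Ion Proton instrument. Per the labels' processing notes, reads were mapped to mm10 with TopHat2 2.0.11 and Bowtie2 2.2.2.2, and Cuffdiff of Cufflinks 2.2.0 gave the deposited FPKM values, in separate tables for the untransfected and the siRNA libraries, which were prepared independently. Any scaling by Cuffdiff is already in these values. The siRNA table was used as a description with no test, and the ends of the intervals that Cuffdiff gives were not used.

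Of 23284 genes listed, 9100 reached 5 FPKM in at least 1 of the 8 libraries and had an OK status in all of them. log2(FPKM + 1) was fitted in limma 3.58.1 (R 4.3.3) with 4 group means and no block, 3 contrasts were taken (the response of each line and their difference), and p-values were adjusted over all genes tested by the Benjamini-Hochberg method, with a threshold of 0.05. The 1 FPKM added makes a log2 value understate changes of low genes. Errors are SE of the fit and intervals cover 95%. Genes were classed by the calls of the 3 contrasts. Whole reads were recovered from the steps of FPKM values for 5672 of 21270 genes with 1 start site, within 0.05 reads, and served to give counts, not a test. Promoters were searched in Python 3.11.15. The fit was tested on simulated data, and the outcome is not reported here.

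The genes and the 37 gene lists and 5 marker lists were chosen with earlier results of these data known. Named by rule were the 10 largest differences in each direction, genes called in opposite directions, the 10 largest shared responses in each direction and list members with a called difference. The other genes with a called difference, and the further shared or list genes given as examples, were chosen after their values were seen. Alternatives changed the FPKM added, the filter, the scaling, the variance model, the library weights and the pairing, or left out 1 library. A few genes are counted but not reported by name here.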

Additional observations from a re-analysis of the deposited data

Results flagged for a closer look

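The genes below are listed because the effect of TGF-β differed between EpH4 and EpRas cells by a test of the difference itself, limma's contrast of the 2 responses with a Benjamini-Hochberg adjusted p under 0.05 over 9100 genes. Each value is the EpRas response minus the EpH4 response in log2(FPKM + 1). No explanation was tested for any of them.

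The differences of the genes called higher in EpH4 cells only, 38 of 39 given, were Ccl17 -3.85, Olfm2 -3.57, Lrrc32 -3.56, Col1a1 -3.12, Col27a1 -2.98, Pdgfrb -2.80, Cd74 -2.65, Cox7a1 -2.62, Cx3cl1 -2.59, Ttyh2 -2.44, AI646023 -2.41, Acta2 -2.38, Wnt9a -2.34, Col1a2 -2.23, Tmem119 -2.22, Nfatc2 -2.12, Lrp4 -2.11, Ptpru -2.04 and Csf1r -2.00 for the more negative ones, and Gm12824 -1.94, Hr -1.92, Col4a4 -1.89, Ces1g -1.87, Prss23 -1.85, Pard6g -1.83, Il18r1 -1.81, Scube3 -1.79, Fam20a -1.78, Anxa8 -1.76, Enho -1.76, Itgb5 -1.71, Usp18 -1.71, Slc6a6 -1.55, Nedd9 -1.52, Celsr1 -1.49, Oasl2 -1.44, Sertad4 -1.40 and Zfp862 -1.34 for the others. For the 4 genes called lower in EpH4 cells only they were Sgpp2 1.38, Znhit6 1.41, Scara5 1.75 and U90926 2.87. For the 10 genes called in EpRas cells only they were Aqp1 -2.68, Krt7 -1.87, St3gal5 -1.86, Slc24a3 -1.58, C3 -1.54, Nptx1 -1.40, Ankrd1 1.54, Abcb1a 1.55, Alcam 1.56 and Il11 1.95. For the 9 genes that responded in the same direction in both lines they were Adamts4 -2.44, Pvrl4 -2.09, Mgp -2.03, Gpr123 -1.67, Prss46 -1.59, Mcam -1.44, Sorbs2 1.55, Rgs16 2.06 and Dlk2 2.41. For the 3 genes with opposite responses they were Pdgfrl -3.41, Krt14 -1.98 and Errfi1 1.54. No group was tested for single samples that stand apart, since each held 2 libraries.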

How the results depend on the processing

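The difference of each of the 65 genes kept its sign in every alternative in which it was tested, while the counts of calls moved with the setting. Against 73 differences called (16 above 0 and 57 below 0), the counts were 117 (95 below 0) with no filter, 24 (6 and 18) with a mean of at least 10 FPKM, 45 (8 and 37) with limma-trend and 31 (6 and 25) with the replicate block. Leaving out 1 library gave 10 to 127 differences (3 to 50 above 0 and 6 to 77 below 0), with 10 without the first library of EpH4 cells with TGF-β and 127 without the second of EpRas cells with TGF-β. The lone library of a group was then assumed to vary like the other groups. For the EpH4 response, 590 higher genes became 921 with array weights and 183 to 711 with 1 library left out, and 265 lower genes became 159 with the mean filter, 572 with weights, 141 with the replicate block and 56 to 374 with 1 library left out. For the EpRas response, 173 higher genes became 106 with weights, 115 with the block and 70 to 215, and 175 lower genes became 100 with the mean filter, 86 with weights, 107 with the block and 54 to 198. Of the classes with small RNA genes kept in, the 224 shared genes became 141 with the block and 90 to 199, and the 46 in EpH4 cells only became 71 with 5 FPKM added, 87 with no filter, 14 with the mean filter, 28 with limma-trend, 23 with the block and 6 to 61. The 15 in EpRas cells only became 9 with 0.1 FPKM added, 4 with the mean filter, 9 with limma-trend, 5 with the block and 4 to 53. The 9 larger in 1 line became 5 with the mean filter, 5 with limma-trend, 3 with the block and 0 to 12, and the 3 opposite became 1 with the mean filter, 0 with weights, 0 with the block, 1 with the crossed block and 0 to 4.

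Of the 65 genes, 41 kept the call with 0.1 FPKM added, 55 with 5 FPKM added, 20 of 28 tested with the mean filter, 35 with limma-trend and 2 to 57 with 1 library left out. Lrrc32 and Col27a1 were called in every alternative that tested them. Replicate numbers did not pair the libraries, with correlations of deviations from -0.347 to 0.078, and 25 of the 65 kept the call with the replicate block. Crossed pairing, chosen after seeing the data, gave 69 differences. Among the shared genes named by rule, the difference changed sign with 0.1 FPKM added for Wnt11 (0.42), Klk10 (2.65) and Ramp3 (0.10), and with 5 FPKM added for Mmp10 (0.48). Klk10 was called in opposite directions with 0.1 FPKM (2.65, adjusted p = 0.0173) and with 5 FPKM added (-1.06, adjusted p = 0.0372), and Wnt11 was called with 5 FPKM added (-1.31, adjusted p = 0.0357). With 1 library left out, the difference ranged from -0.083 to 0.53 for Gng11, from -0.76 to 0.060 for Cotl1, from -0.34 to 0.048 for Klk10, from -0.89 to 0.30 for Ramp3 and from -0.24 to 0.86 for Ly6a. The causes were not tested. With 2 libraries a group and few reads at low FPKM, smaller differences between the lines were not detectable at this depth.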
